A study of Homo sapiens with 12 samples.

Results

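The response of JEKO1 cells to ibrutinib was described in 4 of the 12 RNA-seq libraries of the series, chosen by their cell line label. JEKO1 is an established mantle cell lymphoma (MCL) cell line, a malignancy of mature B cells, and ibrutinib is a covalent inhibitor of Bruton tyrosine kinase (BTK). Of 63677 genes listed, the 15350 with at least 20 reads in at least 2 JEKO1 libraries were kept. The 2 libraries with ibrutinib were compared with the 2 without it, as pairs that shared the ironomycin status, and the genes that moved alike in both pairs are described.

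The series treated JEKO1, JVM2 and MAVER1 with ironomycin, with ibrutinib, with both or with neither, and sequenced polyadenylated RNA. The 4 JEKO1 libraries were an untreated control (Ctrl), 50 nM ironomycin (Irono), 0.5 μM ibrutinib (Ibru) and both drugs at these doses (Irono+Ibru), all for 48 h. Ironomycin is a small molecule made from salinomycin, and its action on cells is to keep lysosomal iron from being used. Each treatment gave 1 library from cells grown in flasks, so no treatment was replicated, and the pair without ironomycin (Ibru against Ctrl) and the pair with it (Irono+Ibru against Irono) share no library. The p-values for ibrutinib in JEKO1 rest on how well these pairs agreed and on a spread shared between genes. Those for a single pair, for the difference between pairs and for the difference between lines come from fits with JVM2 and MAVER1. In the fits of a single pair and of the pair difference, JEKO1 leaves no residual, so the spread is that of JVM2 and MAVER1, and the JEKO1 libraries are assumed to vary like them.

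In B cells, the antigen receptor signals through CD79A and CD79B, the kinases LYN and SYK, and BTK, which activates phospholipase C gamma 2. From there the signal reaches calcium and NFAT, the RAS and ERK cascade, and NF-κB, a family of transcription factors kept in the cytoplasm by inhibitory IκB proteins. PI3K and AKT, which act beside BTK, hold the transcription factor FOXO1 out of the nucleus, where it drives recombination and precursor B-cell genes.

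The libraries held 35448523 to 38110422 counted reads. The B-cell genes MS4A1 (9734 to 15068 reads) and PAX5 (12748 to 18825 reads) and the MCL genes CCND1 (92232 to 139741 reads) and SOX11 (4319 to 7648 reads) were abundant in all 4 libraries. The B-cell gene CD22 had fewer reads (384 to 1066). The MCL marker CD5 had 676 reads in Ctrl, 303 in Irono, 252 in Ibru and 138 in Irono+Ibru. The summed level of 6 T-cell markers was 1.92 to 3.46 CPM (reads scaled to the library total), that of 5 myeloid markers 0.959 to 1.39 CPM and that of 4 NK-cell markers 0.551 to 0.933 CPM, with CD2, KLRD1 and HBB at 0 reads throughout. The erythroid gene HBA1 had 7 to 25 reads, and 3 epithelial markers summed to 2.83 to 6.01 CPM. The library with both drugs stood apart. Mitochondrially encoded genes took 0.883% of its reads, against 1.27% in Irono, 2.03% in Ibru and 2.05% in Ctrl, and the small nuclear RNA 7SK, which has many near-identical copies, had 2750 reads there and 66 to 176 reads in the other libraries. One unnamed gene, ENSG00000226958, took 0.535% of its reads and 0.0886% to 0.111% of the reads of the other JEKO1 libraries. The pair without ironomycin does not contain this library, so values of both pairs are given for the genes the results turn on, and the other genes carry the fitted change over both pairs. In bulk RNA, fewer cells of a kind and less RNA per cell cannot be told apart.

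Of the 15350 genes, 1089 passed the edgeR quasi-likelihood test of ibrutinib (Benjamini-Hochberg adjusted p below 0.05) and had the same direction in both pairs. Of these, 506 were higher (3.3% of all tested) and 583 were lower (3.8%). On the scale of log2 CPM ratios, 414 genes were at least 0.5 higher in both pairs (2.7%) and 409 at least 0.5 lower in both (2.66%), whereas 116 passed 0.5 in opposite directions. At a size of 1 there were 61 higher, 115 lower and 2 in opposite directions. Across genes, which are not independent replicates, the log2 ratios of the pairs correlated with a Pearson r of 0.467. The pair with ironomycin was more spread out, with 3080 genes at least 0.5 in size against 1799 in the pair without it. When the pair that holds the library with both drugs was left out, which compares 1 library with 1 on the spread of the other lines, 197 genes were called higher and 439 lower, of which 152 and 350 were among the calls above.

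**Figure D1:**
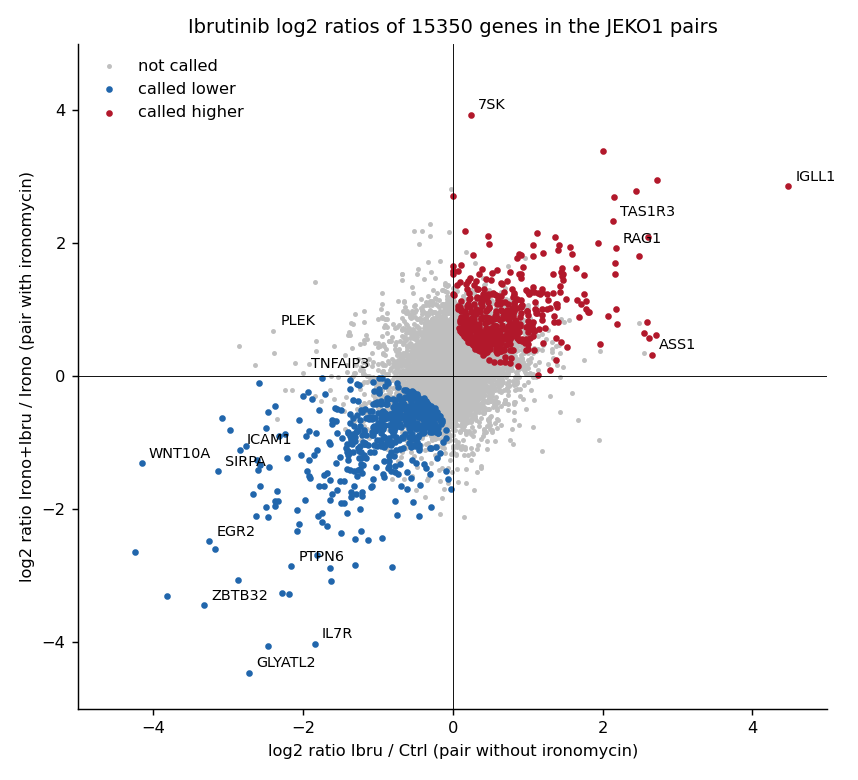
Each point is 1 gene. The x axis is the log2 ratio of normalized CPM in Ibru over Ctrl and the y axis that in Irono+Ibru over Irono. Blue points are the 583 genes called lower and red points the 506 called higher; ZBTB32, EGR2 and IGLL1 lie far out along both axes, while 7SK and PLEK lie far out along the y axis alone or on opposite sides of 0.

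The deepest fall was in ZBTB32, a zinc finger repressor of activated lymphocytes. Its TMM-normalized level was 19.9 CPM in Ctrl and 1.94 CPM in Ibru, and 10.7 CPM in Irono and 0.937 CPM in Irono+Ibru. Both libraries with ibrutinib lay below both without it, and the fitted log2 fold change was -3.42 ± 0.21 (SE). MYO1E, an unconventional myosin, had 30.5 CPM in Ctrl, 20.6 CPM in Irono, 3.35 CPM in Ibru and 3.36 CPM in Irono+Ibru. It fell by 2.90 ± 0.17 on the log2 scale, and the libraries with ibrutinib differed little from each other. The other large falls were in GLYATL2, a glycine acyltransferase (log2 fold change -3.34), the transcription factor EGR2 (-2.93), the interleukin 7 receptor chain IL7R (-2.76), the immunoglobulin transporter PIGR (-2.71), the ligand WNT10A (-2.52), the phosphatase PTPN6 (-2.50), the surface protein CD7 (-2.24), HIVEP3 (-2.23), DUSP5 (-2.22) and the inhibitory receptor SIRPA (-2.17). IL7R, WNT10A and SIRPA were not called by DESeq2, and WNT10A was also lost when the pair without ironomycin was left out. GLYATL2 rested on 3 reads in the library with both drugs.

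The largest rises belonged to IGLL1, the lambda5 surrogate light chain of precursor B cells. IGLL1 had 0.469 CPM in Ctrl and 11.6 CPM in Ibru, and 3.18 CPM in Irono and 23.4 CPM in Irono+Ibru. The libraries without ibrutinib lay below those with it, and the fitted log2 fold change was 3.43 ± 0.23. IGLL1 shares sequence with the immunoglobulin lambda constant genes, and the counting could have split reads between them, so its value is uncertain. TAS1R3, a taste receptor subunit, was the most abundant of the 12 largest rises in Ibru, at 80.2 CPM against 18.1 CPM in Ctrl. In the other pair it had 31.4 CPM in Irono+Ibru and 6.18 CPM in Irono, and it rose by 2.24 ± 0.13. RAG1, the recombinase of antigen receptor genes, had 2.70 CPM in Ctrl, 12.4 CPM in Ibru, 1.58 CPM in Irono and 6.14 CPM in Irono+Ibru (log2 fold change 2.09 ± 0.22). The remaining rises of this rank were SH2D4B (2.44), SPNS3 (1.91), the phospholipase PLCH2 (1.81), the chemokine scavenger ACKR4 (1.74), the collagen hydroxylase P4HA2 (1.68), the neuronal kinesin KIF1A (1.60), DPYSL5 (1.51), the pseudogene AOX2P (1.48) and the cytokine-like CYTL1 (1.47). KIF1A and CYTL1 were lower without than with ironomycin. CYTL1 had 2 reads in Ctrl and 9 in Ibru, against 557 in Irono and 1534 in Irono+Ibru, and neither was called in the pair without ironomycin alone.

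**Figure D2:**
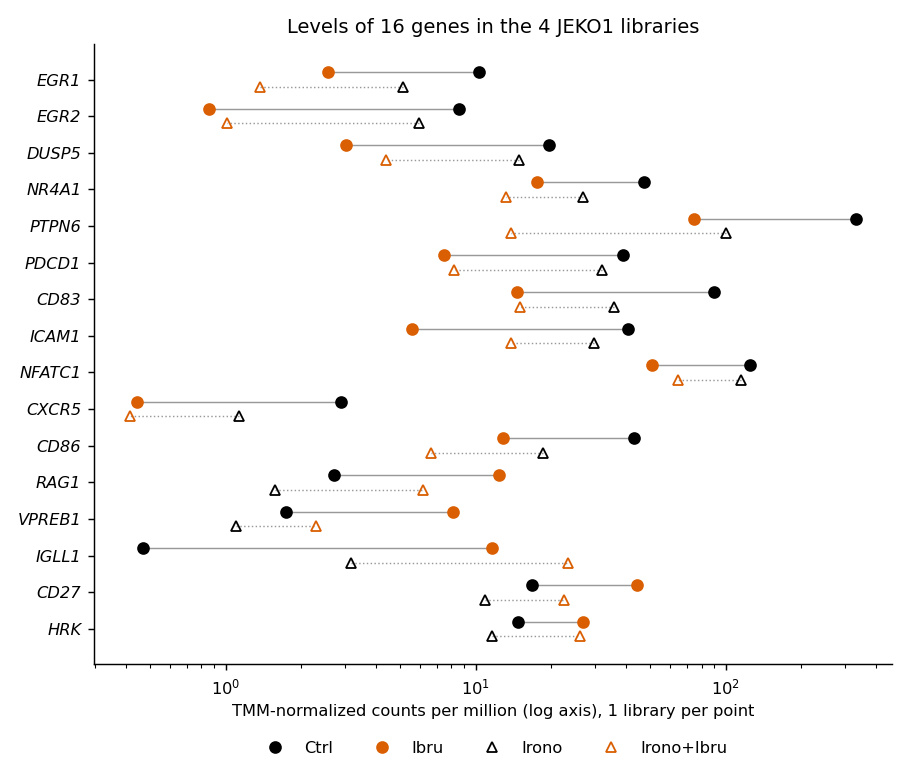
Levels of 16 genes in the 4 JEKO1 libraries, as TMM-normalized CPM on a log axis, 1 library per point, with circles for the pair without and triangles for the pair with ironomycin. From EGR1 to CD86 the orange ibrutinib points lie left of the black ones in both pairs, and from RAG1 to HRK they lie right of them.

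The RNA of the drug target and of most of its partners was not called. BTK itself had 217 CPM in Ctrl, 232 CPM in Ibru, 188 CPM in Irono and 206 CPM in Irono+Ibru, and its log2 fold change of 0.11 ± 0.13 did not pass the test (edgeR adjusted p = 0.72). Of the 31 tested genes of the receptor and its proximal kinases, 1 rose and 4 fell, against 3.3% and 3.8% of all genes. The adaptor BANK1 rose by 0.41. The SRC family kinases FGR and LYN and the exchange factors VAV2 and VAV1 fell. LYN, which starts receptor signaling and also feeds its inhibition, had 186 CPM in Ctrl and 115 CPM in Ibru, and 119 CPM in Irono and 71.9 CPM in Irono+Ibru. Its log2 ratio was -0.70 in the pair without and -0.72 in the pair with ironomycin. FGR fell by 1.38 and VAV2 by 0.91. VAV1 fell by 0.46. DESeq2 called neither VAV1 nor BANK1, and BANK1 was also lost when either pair was left out. CD79A (log2 fold change -0.21), SYK (-0.21), BLNK (-0.15) and PLCG2 (-0.20) were not called, and neither was CD79B, at 0.40 ± 0.19.

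Genes that restrain the receptor were lower. Of 37 tested inhibitory receptors, phosphatases and adaptors, 13 fell (35.1%, against 3.8% of all genes) and 1, the CSK adaptor PAG1, rose. The median log2 fold change was -0.35 against 0.01 over all genes. PTPN6 encodes SHP-1, the tyrosine phosphatase that inhibitory receptors recruit. It had 332 CPM in Ctrl, 100 CPM in Irono, 74.4 CPM in Ibru and 13.8 CPM in Irono+Ibru, so it was lower with each drug and lowest with both. The log2 ratio for ibrutinib was -2.16 without and -2.85 with ironomycin. PDCD1, the PD-1 receptor, had 38.8 CPM in Ctrl and 7.46 CPM in Ibru, and 32.0 CPM in Irono and 8.22 CPM in Irono+Ibru. Falls were also seen in the SH2 adaptor SH2D2A (-2.14), FCRL5 (-2.06), CEACAM1 (-1.93), the SRC-like adaptor SLA (-1.74), CD5 (-1.30), the phosphatase PTPN22 (-1.26), FCRL3 (-1.25), the adaptor DOK2 (-0.77) and the BTK-binding protein SH3BP5 (-0.65). By pair, the list median log2 ratio was -0.41 without and -0.28 with ironomycin. CD5 is also an MCL marker, and it had 676 reads in Ctrl and 138 in Irono+Ibru.

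Immediate early genes respond to ERK and calcium within minutes of receptor engagement, and phosphatases of the DUSP family feed back on ERK. Of 33 tested genes of this kind, 16 fell (48.5%, against 3.8% of all genes) and 1, the stress factor ATF3, rose. The median log2 fold change was -0.43. The other 16, among them JUN, FOSB, IER2, DUSP1 and MYC, were not called. EGR1 had 10.3 CPM in Ctrl and 2.57 CPM in Ibru, and 5.13 CPM in Irono and 1.38 CPM in Irono+Ibru. EGR2 had 8.61 CPM in Ctrl and 0.857 CPM in Ibru, and 5.92 CPM in Irono and 1.01 CPM in Irono+Ibru. For both genes the libraries with and without ibrutinib did not overlap. EGR3 fell by 2.68, although it had 28 reads in Irono and 5 in Irono+Ibru. The orphan receptor NR4A1 went from 47.1 to 17.6 CPM without ironomycin and from 26.9 to 13.2 CPM with it. The ERK phosphatase DUSP5 went from 19.6 to 3.04 CPM and from 15.0 to 4.37 CPM. Further falls were seen in RGS1 (-2.28), CD69 (-1.74), the RAS inhibitor SPRED2 (-1.29), RGS2 (-1.27), the phosphatase DUSP2 (-0.83), JUNB (-0.70) and the kinase PIM1 (-0.54). Without ironomycin the list median log2 ratio was -0.64, and with it -0.30.

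A list of 26 tested genes of calcium signaling, NFAT and linked factors held 9 that fell (34.6%, against 3.8% of all genes). DESeq2 called 6 of these lower. The 9 were NFATC1, NFATC2, 3 ion channels, 3 zinc finger proteins of the HIVEP family, and IPCEF1, which binds cytohesins. The calcineurin subunits, the ITPR calcium channels, STIM1 and STIM2 were not called. NFATC1 is an NFAT factor that induces its own gene. It had 125 CPM in Ctrl and 50.9 CPM in Ibru, and 115 CPM in Irono and 64.3 CPM in Irono+Ibru (log2 fold change -1.06 ± 0.12). HIVEP3, a zinc finger protein that binds κB-like sequences, went from 49.2 to 8.71 CPM and from 38.6 to 9.86 CPM. The potassium channels KCNN1 and KCNN4 fell by 1.17 and 1.14, the ATP-gated channel P2RX5 by 0.77 and IPCEF1 by 1.60. NFATC2 (-0.44), HIVEP1 (-0.70) and HIVEP2 (-0.63) were called with smaller changes.

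NF-κB genes had the largest share of edgeR calls of the 20 lists, a rank that DESeq2 did not give. Of 26 tested subunits, inhibitors and targets, 14 fell (53.8%, against 3.8% of all genes), and the median log2 fold change was -0.54. The size of the change, however, depended on the pair. The median log2 ratio was -1.17 without ironomycin and -0.24 with it, and 26 of 26 genes were below 0 in the pair without ironomycin and lower there than in the pair with it. The share of all genes with this pattern was not counted. ICAM1, an adhesion molecule, had 40.5 CPM in Ctrl and 5.58 CPM in Ibru, but 29.6 CPM in Irono and 13.8 CPM in Irono+Ibru. CD83 went from 89.5 to 14.6 CPM without and from 35.8 to 15.0 CPM with ironomycin. The libraries with ibrutinib lay below those without it for both genes. The atypical IκB proteins NFKBID (-1.91) and BCL3 (-1.60) fell, as did the inhibitors NFKBIE (-0.81) and NFKBIA (-0.84), the subunits RELB (-1.10) and NFKB2 (-1.02), and IER3, from 144 and 124 reads to 60 and 74. DESeq2, which takes the spread between the pairs differently, called 3 of the 26 lower, and ICAM1, CD83, BCL3, NFKBID and IER3 were not among them. It called 12 of 33 immediate early and 10 of 37 inhibitory genes lower, and 268 of all 15350 genes. Over all genes tested, the median log2 ratio was 0.0038 without and 0.0055 with ironomycin.

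The difference between the pairs was itself tested, as an interaction in a fit of all 12 libraries. It passed in 51 of 15350 genes (0.332%), of which 32 were higher in the pair with ironomycin, and in 10 of the 26 NF-κB genes, 10 of them higher in that pair. PLEK, pleckstrin, a protein kinase C substrate of leukocytes, gave the largest difference of the list. It had 50.9 CPM in Ctrl and 9.59 CPM in Ibru, but 112 CPM in Irono and 181 CPM in Irono+Ibru, a difference of 3.10 on the log2 scale (edgeR adjusted p = 0.0069). TNFAIP3, the deubiquitinase A20 that ends NF-κB signaling, had 869 reads in Ctrl, 216 in Ibru, 993 in Irono and 1039 in Irono+Ibru. It was therefore low only in Ibru, with a difference of 2.07 (adjusted p = 0.0035). The differences were 2.25 in the kinase MAP3K8, 1.55 in RELB, 1.20 in BIRC3, 1.06 in NFKB2 and 0.97 in IRF4. IRF4, a regulator of B-cell activation, had 7404 reads in Ctrl and 3735 in Ibru, and 11382 in Irono and 11280 in Irono+Ibru. The immediate early receptor NR4A3 (2.15) and the adhesion molecule CD44 (1.18) differed in the same direction. The host transcript MIR3142HG, which also carries miR-146a, had 208 reads in Ctrl, 33 in Ibru, 192 in Irono and 180 in Irono+Ibru. Mitochondrially encoded genes differed the other way: 13 of the 18 tested passed, and their median log2 ratio was 0.04 without and -1.39 with ironomycin. Among the largest differences were also 7SK (3.72), MIR663AHG (2.72) and MIR3648-2 (2.73), repeat-derived or multicopy RNAs that were high in the library with both drugs and whose counts are uncertain. Each of these differences uses all 4 JEKO1 libraries, that one included, and its part in them was not tested. In TNFAIP3, MIR3142HG and IRF4 the lowest library was Ibru.

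**Figure D3:**
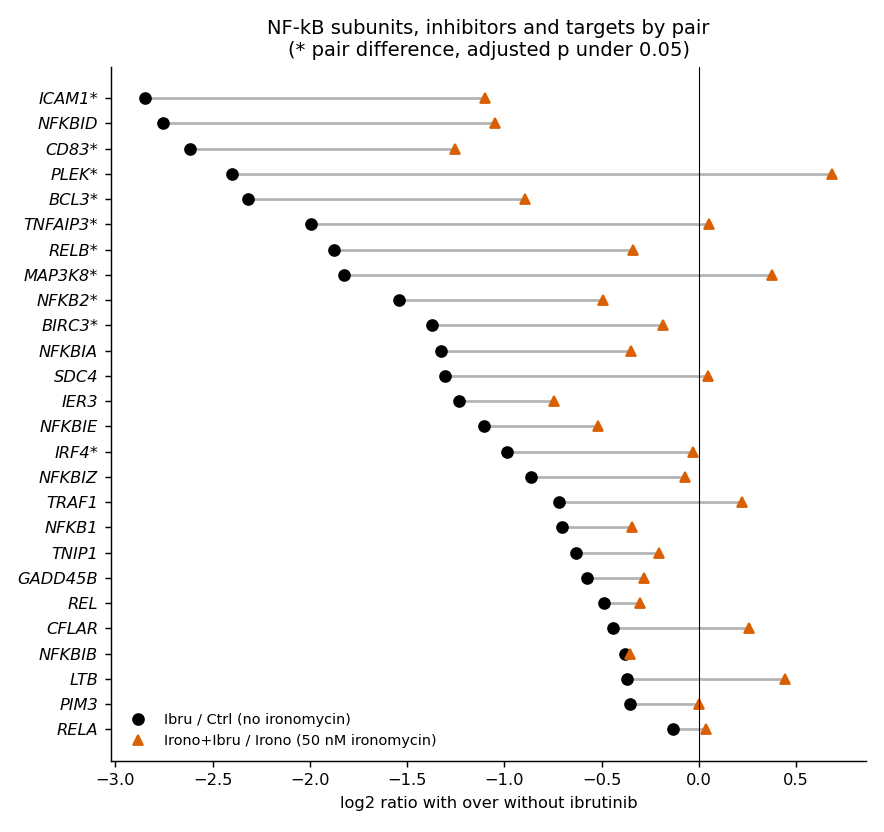
Log2 ratios of normalized CPM for the 26 tested NF-κB genes, with black circles for Ibru over Ctrl and orange triangles for Irono+Ibru over Irono. Every circle lies below 0 and left of its triangle, and the 10 genes with a star passed the test of the pair difference.

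Stretches of 250 bases before the start site, from RefSeq (GRCh38.p14), are shown for 4 genes called lower with ibrutinib and 1 called higher. They were chosen because each holds a match to a motif of a factor downstream of the receptor. For MIR3142HG the log2 ratio was -2.58 without and only -0.11 with ironomycin, so its fall lay in the pair without it. The motifs searched on both strands were TGANTCA for AP-1, TGACGTCA for CRE, GCGGGGGCG for EGR, GTAAACA for FOXO, TGGAAA for NFAT and the κB consensus. Capitals mark the matches, which in MIR3142HG overlap between the NFAT and κB motifs and in PDCD1 are 2 overlapping κB matches.
CD83, chr6:14117006-14117255, plus strand: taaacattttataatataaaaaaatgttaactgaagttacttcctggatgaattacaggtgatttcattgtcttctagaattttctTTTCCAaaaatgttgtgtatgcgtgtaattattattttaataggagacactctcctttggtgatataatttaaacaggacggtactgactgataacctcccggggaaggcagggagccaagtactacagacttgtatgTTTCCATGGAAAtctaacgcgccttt
ICAM1, chr19:10270870-10271119, plus strand: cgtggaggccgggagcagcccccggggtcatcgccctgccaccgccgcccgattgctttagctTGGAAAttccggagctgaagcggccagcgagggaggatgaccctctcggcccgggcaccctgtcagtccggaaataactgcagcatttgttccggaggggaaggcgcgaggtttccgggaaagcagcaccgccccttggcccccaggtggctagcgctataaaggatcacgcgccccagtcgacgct
PDCD1, chr2:241858895-241859144, minus strand: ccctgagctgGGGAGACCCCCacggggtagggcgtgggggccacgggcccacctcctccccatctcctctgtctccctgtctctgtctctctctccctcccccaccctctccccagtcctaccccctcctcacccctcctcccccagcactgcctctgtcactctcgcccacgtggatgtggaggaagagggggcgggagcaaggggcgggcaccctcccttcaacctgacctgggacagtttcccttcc
MIR3142HG, chr5:160468001-160468250, plus strand: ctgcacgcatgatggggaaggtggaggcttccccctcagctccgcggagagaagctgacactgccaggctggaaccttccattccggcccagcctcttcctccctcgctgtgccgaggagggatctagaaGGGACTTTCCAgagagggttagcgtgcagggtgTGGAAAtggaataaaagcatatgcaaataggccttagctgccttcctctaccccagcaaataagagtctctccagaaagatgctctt
BACH2, chr6:90296844-90297093, minus strand: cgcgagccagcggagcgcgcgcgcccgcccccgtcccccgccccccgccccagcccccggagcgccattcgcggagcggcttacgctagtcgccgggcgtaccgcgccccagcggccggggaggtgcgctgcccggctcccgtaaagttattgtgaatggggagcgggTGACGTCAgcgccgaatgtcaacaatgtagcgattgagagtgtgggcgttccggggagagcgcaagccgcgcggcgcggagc
CD83 and ICAM1 hold matches to the NFAT motif, PDCD1 to the κB consensus, MIR3142HG to both and BACH2 to CRE. In ICAM1 the match and the bases after it, TGGAAAttcc, also differ from the κB consensus searched (GGGRNWYYCC) only in the first letter. The NFAT label there is that of the letters searched, and which factor binds was not tested.

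Of the 15350 genes, 10622 had a RefSeq promoter of 300 bases, from 250 before to 50 after the start site. The κB consensus was present in 10.7% of 413 promoters of genes called lower, in 5.85% of 325 of genes called higher and in 6.31% of all. The NFAT motif was present in 19.6%, 14.2% and 14.9%. The EGR motif was found in 7.51%, 7.38% and 8.07%, the AP-1 motif in 5.57%, 5.23% and 4.27%, the FOXO motif in 2.42%, 2.15% and 2.30%, and CRE in 2.18%, 1.23% and 3.34%. A match describes the letters of the window and was not tested as a site.

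A minority of the FOXO1 and precursor B-cell genes passed the test. Of 29 tested genes of FOXO1, its targets and precursor B cells, 7 rose and 3 fell. These shares were 24.1% and 10.3%, against 3.3% and 3.8% of all genes, and the median log2 fold change was 0.32. The other 19, among them the precursor B-cell polymerase DNTT, were not called. Besides IGLL1 and RAG1, the other surrogate light chain component VPREB1 went from 1.74 to 8.10 CPM without ironomycin and from 1.10 to 2.29 CPM with it. VPREB3 went from 39.2 to 65.9 CPM and from 29.7 to 53.9 CPM. The transcriptional repressor BACH2 went from 111 to 192 CPM and from 101 to 153 CPM. GADD45A rose by 0.67 and TP53INP1 by 0.53. FOXO1 itself had a log2 fold change of 0.33 ± 0.11 and was not called (edgeR adjusted p = 0.070). The FOXO1 targets CCR7 and IL7R went against the list, with CCR7 at 65.6 CPM in Ctrl, 35.1 CPM in Ibru, 40.6 CPM in Irono and 27.6 CPM in Irono+Ibru. IKZF1 (-0.57) was the third of the list that fell.

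Of 22 tested chemokine, homing and adhesion genes, 9 fell (40.9%, against 3.8% of all genes), of which DESeq2 gave 5. The follicle-homing receptor CXCR5 fell by 2.16, from 105 reads in Ctrl and 43 in Irono to 16 in each library with ibrutinib. The integrin chain ITGB2 fell by 1.12, ADAM19 by 0.80 and ADAM28 by 0.73. The median log2 ratio of these genes was -0.23 without and -0.12 with ironomycin. Fitted changes were above 0 in 8 of the 22, and the median over all genes was 0.01.

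Of 32 tested B-cell surface and costimulatory genes, 16 fell and 1 rose (50.0% and 3.12%, against 3.8% and 3.3% of all genes). The median was -0.45, and DESeq2 called 8 lower and 1 higher. CD86, a ligand of CD28 on T cells, had 42.8 CPM in Ctrl and 12.9 CPM in Ibru, and 18.6 CPM in Irono and 6.61 CPM in Irono+Ibru. The ligand CD70 went from 147 to 77.7 CPM and from 116 to 61.4 CPM. Its receptor CD27 was the gene that rose, from 16.8 to 44.2 CPM and from 10.9 to 22.6 CPM. The CD70 and CD27 changes were therefore in opposite directions, at -0.92 and 1.23. The cytokine receptor chains IL10RA (-1.38), IL21R (-1.37) and IL2RG (-0.81) fell, as did TLR10 (-1.23), CD48 (-1.24), TNFRSF1B (-1.08), the CD23 gene FCER2 (-1.34) and CD52 (-1.14). The share of CD52 lost was larger in the pair with ironomycin, from 13.9 to 3.72 CPM, than in the other, from 31.2 to 21.5 CPM, and that difference passed the test (log2 difference -1.35, edgeR adjusted p = 0.014).

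Of 31 tested B-cell transcription factors, 3 rose and 5 fell (9.68% and 16.1%, against 3.3% and 3.8% of all genes). EBF1 (0.43), SOX4 (0.47) and BACH2 (0.70) rose, while MEF2C (-0.87), IKZF1 (-0.57), IKZF3 (-0.51) and IRF4 (-0.50) were among those that fell. By the reads given above, the fall of IRF4 lay almost wholly in the pair without ironomycin. Of 19 tested genes of MHC class II presentation, 2 fell (10.5%, against 3.8% of all genes). They were HLA-DQA1 (-0.48) and its near-identical copy HLA-DQA2 (-0.53), between which reads could be shared.

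Of 30 tested ATF4 and amino acid response genes, 11 rose (36.7%, against 3.3% of all genes), with a median of 0.35 over the list. The other 19, among them ATF4 itself, PSAT1, MTHFD2 and SLC7A11, were not called. DESeq2 called 6 of the 30 higher, against 141 of all genes. By pair, the list median was 0.31 without and 0.32 with ironomycin. SESN2, an inhibitor of mTORC1, had 24.4 CPM in Ctrl, 37.0 CPM in Ibru, 64.8 CPM in Irono and 104 CPM in Irono+Ibru. STC2 had 8.75 CPM in Ctrl, 18.5 CPM in Ibru, 35.4 CPM in Irono and 53.7 CPM in Irono+Ibru. Both were lowest in Ctrl and highest with both drugs. In this list 30 of 30 genes were higher in Irono than in Ctrl, but the share of all genes higher in Irono was not counted. VLDLR rose by 1.32, PHGDH, the first enzyme of serine synthesis, by 0.81, CHAC1 by 0.72, ATF5 by 0.71 and TRIB3 by 0.67. Of 31 tested genes of the unfolded protein response, 2 rose (6.45%, against 3.3% of all genes), DNAJB9 (0.53) and DERL3 (0.42). The list median was 0.02. It was -0.08 in the pair without ironomycin and 0.10 in the pair with it.

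Of 40 tested interferon-stimulated genes, 7 fell and 2 rose (17.5% and 5.0%, against 3.8% and 3.3% of all genes). MX1, an antiviral GTPase, had 28.2 CPM in Ctrl and 11.7 CPM in Ibru, and 69.4 CPM in Irono and 26.1 CPM in Irono+Ibru. IFI44L (-1.08), OASL (-0.99), IFI6 (-0.75), EPSTI1 (-0.72), BST2 (-0.54) and IFITM1 (-0.39) also fell. These 7 genes were higher in Irono than in Ctrl, but the share of all genes higher in Irono was not counted. IFI44L, with 16 reads in Ctrl and 6 in Ibru, passed the read filter only through the libraries with ironomycin. LGALS3BP (0.84) and IRF1 (0.52) rose. Over the list, the median log2 ratio was -0.15 without and -0.10 with ironomycin.

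The proliferation lists held few calls. Of 47 tested genes of replication and mitosis and of 45 MYC targets and ribosome biogenesis genes, 0 were called by the edgeR test. At an unadjusted p under 0.05, 5 and 8 were lower, against 2848 of all 15350 genes in either direction. DESeq2 called 1 gene of the MYC list lower, against 268 of all genes. The medians of the replication and MYC lists were 0.08 and -0.07 without ironomycin and -0.31 and -0.30 with it. MYC had 31339 reads in Ctrl, 31961 in Ibru, 35442 in Irono and 39061 in Irono+Ibru. CCND1, the cyclin D1 gene that drives MCL, had 126468 reads in Ctrl, 139741 in Ibru, 97634 in Irono and 92232 in Irono+Ibru. Of 23 tested D cyclins, CDKs and inhibitors, 1 fell (CDKN2D, -0.48), a share of 4.35% against 3.8% of all genes. Of 14 BCL2 family genes, the BH3-only gene HRK rose and BID fell (7.14% each, against 3.3% and 3.8% of all genes). HRK went from 14.8 to 26.9 CPM and from 11.6 to 26.1 CPM, a log2 fold change of 1.01 ± 0.14, and BID fell by 0.51 in both pairs. Of 34 genes of cholesterol and fatty acid synthesis 4 fell (11.8%, against 3.8% of all genes). Of 29 of iron biology 1 fell (3.45%), the metal transporter SLC39A14 (-0.43). Of 33 of glycolysis and hypoxia 4 fell (12.1%) and 1 rose (3.03%, against 3.3% of all genes). The hypoxia-induced peptide ADM (-1.81) and the muscle enolase ENO3 (-0.65) were among those that fell.

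**Figure D4:**
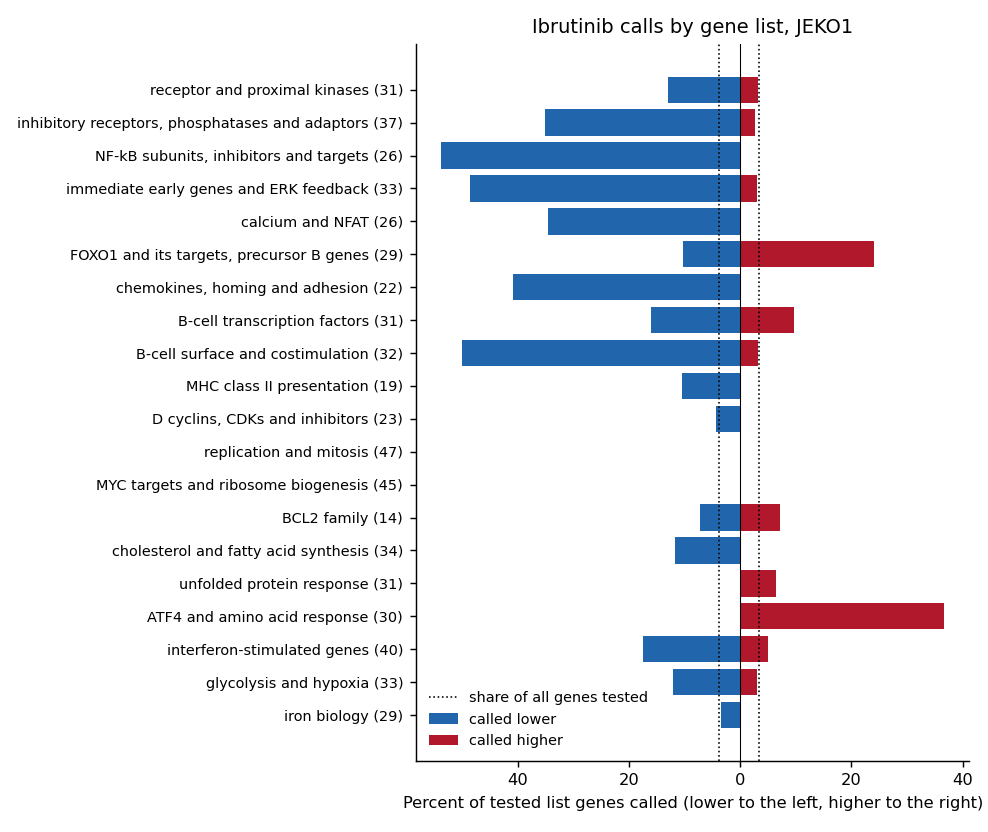
Percent of the tested genes of each list called lower (blue, to the left) or higher (red, to the right) with ibrutinib, with the number tested in brackets. The dotted lines mark 3.8% lower and 3.3% higher over all 15350 genes; NF-κB (53.8%), surface (50.0%) and immediate early genes (48.5%) have the largest shares called lower, and ATF4 genes (36.7%) the largest share called higher.

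The ibrutinib change in JEKO1 was compared with the mean of the changes in JVM2 and MAVER1, again in the fit of all 12 libraries. JVM2 received 1.5 μM and MAVER1 6.25 μM ibrutinib, and the libraries of both with ironomycin received 250 nM against 50 nM in JEKO1, so the doses and the line cannot be told apart. The difference passed in 154 of 15350 genes (1.0%), with JEKO1 lower in 111 and higher in 43. Of the 154, 146 were also called within JEKO1, against 1089 of all genes. Both tests use the same JEKO1 libraries, so this overlap is not separate evidence. The 5 largest were ZBTB32, TNFAIP2, MYO1E, RGS1 and ICAM1. ZBTB32 changed by -3.42 (JEKO1), -0.08 (JVM2) and -1.36 (MAVER1) on the log2 scale, a difference of -2.71 (edgeR adjusted p = 0.00095). TNFAIP2, a gene induced by TNF, had -1.81, 0.33 and 1.10. MYO1E had -2.90, -0.20 and -0.68. RGS1, which dampens chemokine receptor signaling, had -2.28, 0.05 and -0.17. ICAM1 had -1.94, 0.30 and 0.18. All 5 were lower in JEKO1 than in either other line.

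By list, against 1.0% of all genes, the difference between lines passed in 8 of 32 surface genes, 5 of 37 inhibitory genes, 4 of 26 NF-κB genes, 4 of 33 immediate early genes and 4 of 22 homing genes, all with JEKO1 lower. It also passed in 4 of 40 interferon-stimulated genes, 3 of them lower in JEKO1, and in 1 of 30 ATF4 genes, SESN2, which was higher. The NF-κB list median was -0.54 for JEKO1, 0.13 for JVM2 and 0.01 for MAVER1. Among the surface genes, CD86 had -1.62, 0.12 and -1.57 and TLR10 had -1.23, 0.33 and -1.17 in this order. MAVER1 changed nearly as much as JEKO1 in CD86 and TLR10, so their difference lay against JVM2. EGR2 was low with ibrutinib in every line, at -2.93, -1.90 and -1.03, and its difference of -1.47 passed the test. TAS1R3 (2.24, 0.59 and 0.35) was higher in JEKO1. MX1 had -1.35, 0.11 and 0.11, and SESN2 had 0.65, -0.16 and 0.18.

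**Figure D5:**
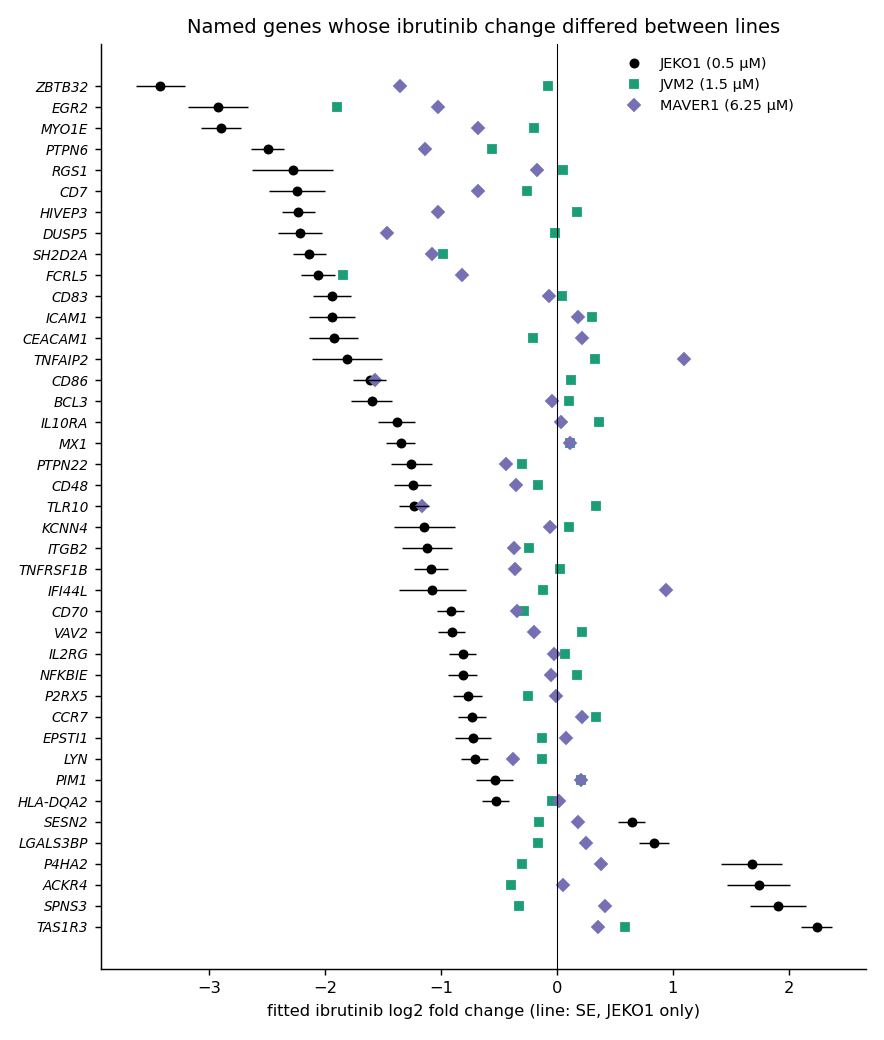
Fitted ibrutinib log2 fold changes of the named genes whose change differed between JEKO1 and the other lines, with black circles and SE lines for JEKO1, green squares for JVM2 and purple diamonds for MAVER1. ZBTB32 at -3.42 and TAS1R3 at 2.24 mark the extremes in JEKO1, and most JVM2 and MAVER1 points lie nearer 0.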

How the data were processed

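RNA-seq had been performed on polyadenylated RNA of 12 libraries, 4 of them JEKO1. The deposited table, made by the authors, gives unnormalized read counts for every Ensembl gene. The submitters' processing notes name STAR, DESeq2 and GRCh37 without roles, and the counter is not given in the sources used here. Names came from an Ensembl table (39699 of 63677 genes), and coordinates are given only for RefSeq promoter windows on GRCh38.p14, the build of the reference used here, not that of the counts. No column was left unused (0).

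Genes with 20 or more reads in at least 2 JEKO1 libraries entered edgeR 4.0.16 under R 4.3.3 (TMM, quasi-likelihood F-test, two-sided, terms for ironomycin and ibrutinib, Benjamini-Hochberg adjustment over 15350 genes). With 4 libraries and 1 residual degree of freedom, the spread was moderated across genes (median prior degrees of freedom 41.0), so p-values measure how the pairs differ, which may be technical. A call needed an adjusted p-value under 0.05 and the same sign in both pairs. Pair ratios are log2 CPM with a prior count of 2. Differences between pairs and between lines were contrasts in a 12-library fit with line-specific terms. Depth was 35448523 to 38110422 reads per library, and SEs carry the precision it gives.

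Named were the 12 largest falls and rises among called genes with 100 reads in 2 libraries and 0.5 in both pairs, called list members past 0.5 in both pairs, the receptor and kinase list, and the 5 largest differences between lines and between pairs. Other genes given with values were chosen after their values were seen. The members, the 20 lists and the tests were chosen with earlier results of these data known. Some genes the rule names are not reported here. Lists are described by counts and medians only. The JEKO1 edgeR fit and the edgeR contrasts between lines and between pairs were tried on simulated data. The fits of a single pair and DESeq2 were not. Alternatives were other scalings, filters, tools and thresholds, and leaving out a pair. List counts without the pair with ironomycin were added after the data were seen and are not reported here. DESeq2 1.42.0 was an alternative, and plots were drawn with matplotlib 3.10.9 in Python 3.11.15.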

Additional observations from a re-analysis of the deposited data

Results flagged for a closer look

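These results stood out because an ibrutinib effect differed between groups by a test of the difference itself, an edgeR contrast with an adjusted p-value under 0.05 over 15350 genes. Values are differences of log2 fold changes. Against the mean of JVM2 and MAVER1, which received other doses, the change in JEKO1 was lower in ZBTB32 (-2.71), TNFAIP2 (-2.52), MYO1E (-2.47), RGS1 (-2.22), ICAM1 (-2.16), CEACAM1 (-1.93), CD83 (-1.93), HIVEP3 (-1.80), CD7 (-1.78), PTPN6 (-1.64), BCL3 (-1.62) and IL10RA (-1.59). Smaller differences in this direction were found in DUSP5 (-1.47), IFI44L (-1.47), EGR2 (-1.47), MX1 (-1.46), KCNN4 (-1.19), SH2D2A (-1.11), CCR7 (-1.01), CD48 (-0.99), VAV2 (-0.92), TNFRSF1B (-0.92), CD86 (-0.90) and PTPN22 (-0.89), and in NFKBIE (-0.87), IL2RG (-0.84), TLR10 (-0.82), ITGB2 (-0.81), PIM1 (-0.75), FCRL5 (-0.73), EPSTI1 (-0.70), P2RX5 (-0.64), CD70 (-0.60), HLA-DQA2 (-0.52) and LYN (-0.46). A difference from the mean does not mean that both other lines changed less. The change in MAVER1 was close to that in JEKO1 in CD86 (-1.57 and -1.62) and TLR10 (-1.17 and -1.23). In FCRL5 the change in JVM2 (-1.84) was close to that in JEKO1 (-2.06). JEKO1 was higher in ACKR4 (1.91), SPNS3 (1.85), TAS1R3 (1.76), P4HA2 (1.64), LGALS3BP (0.80) and SESN2 (0.63).

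Within JEKO1, the change in the pair with ironomycin lay above that in the pair without it in 7SK (3.72), PLEK (3.10), MIR3648-2 (2.73), MIR663AHG (2.72), MIR3142HG (2.55), ICAM1 (1.77), BCL3 (1.44) and CD83 (1.38). It lay below in CD52 (-1.35). Each of these genes was measured in 1 library per treatment, and the library with both drugs stood apart from the other 3 in its share of mitochondrial reads.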

How the results depend on the processing

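Against 506 genes called higher and 583 lower, DESeq2 called 141 and 268, no filter on low counts 7 and 35 of 30200 genes, an adjusted p-value under 0.01 gave 265 and 380, and 0.5 in both pairs 234 and 323. Without the ironomycin term edgeR called 0 and 0, with 430 genes at an unadjusted p under 0.05. Leaving out a pair gave 197 to 1215 higher and 439 to 1317 lower, with the larger counts from the pair that holds the library with both drugs. Other scalings, filterByExpr, the 12-library fit and the legacy quasi-likelihood stayed within 1.5 times. Genes at 0.5 in both pairs (414 higher, 409 lower) became 1538 and 1212 without a filter, 61 and 115 at a minimum of 1, and 1315 and 1038 at 0.25. DESeq2 gave 284 differences between lines instead of 154 and 118 between pairs instead of 51. The causes were not tested.

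Of the 101 named genes with a call, 74 kept it under DESeq2, 96 with library totals, 96 in the 12-library fit, 22 without a filter and 0 without the ironomycin term. Leaving out a pair moved PLEK from -2.41 to 0.69, MIR3648-2 from -0.52 to 2.20 and MIR663AHG from -0.00058 to 2.72, so their direction depended on the pair. Calls lost without the pair with ironomycin were KIF1A, CYTL1, DOK2, SPRED2, VPREB3, TP53INP1, FCER2, IFI44L, OASL, VAV1, BANK1, 7SK and MIR663AHG. Without the other pair WNT10A, DOK2, IER3, CD69, IPCEF1, KCNN4, VPREB3, CXCR5, FCER2, IFI6, OASL, BANK1, TNFAIP2 and MIR3142HG were lost. With 1 library per treatment, a technical fault in 1 library cannot be told apart from an effect of that treatment.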

Other observations

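Outside the lists, several genes differed between the pairs by the edgeR contrast and were picked after their values were seen. CSF1, the macrophage growth factor, had 314 reads in Ctrl, 225 in Ibru, 2067 in Irono and 6070 in Irono+Ibru, a log2 difference of 2.03. ACKR3, a chemokine scavenger, had 97 reads in Ctrl, 26 in Ibru, 270 in Irono and 396 in Irono+Ibru (2.44). The noncoding RNA MIAT had 1676 reads in Ctrl, 999 in Ibru, 9331 in Irono and 15792 in Irono+Ibru (1.50), and the disulfide isomerase PDIA2 had 622, 390, 10446 and 17364 reads in the same order (1.40). In these 4 genes Ibru was the lowest library and Irono+Ibru the highest.

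ASS1, which makes argininosuccinate, differed the other way. It had 730 reads in Ctrl, 4596 in Ibru, 9484 in Irono and 11994 in Irono+Ibru, so the log2 ratio for ibrutinib was 2.65 without and 0.32 with ironomycin (difference -2.32). The summed level of 4 plasma cell markers was 51.4 CPM in Ctrl, 54.1 CPM in Ibru, 158 CPM in Irono and 200.0 CPM in Irono+Ibru, and the libraries with ironomycin lay above those without it. The sum was carried by XBP1 (1465, 1663, 4262 and 5279 reads in this order) and TNFRSF17 (313, 271, 1407 and 1600 reads), whereas SDC1 had 55, 62, 49 and 45 reads.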
